A study of Homo sapiens with 4 samples.

Results

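The MAGE (melanoma antigen) family was taken as every protein-coding gene whose symbol begins with MAGE, a letter among A, B, C, D, E, F, H and L, and a digit. This gave 35 members among the 19951 protein-coding genes and the 58735 genes listed in all. Of these, 26 were of the A, B and C subfamilies and 9 of the D to L subfamilies. Cells of MKN-45, a human line established from a gastric carcinoma, had been infected with a lentivirus for SIX2 overexpression or with a control lentivirus, and stably infected cells had been selected with puromycin. There were 2 libraries labelled SIX2 overexpression and 2 labelled control, and the titles number the libraries of each label 1 and 2. Below, number 2 stands for the replicate 2 libraries of both labels and number 1 for the replicate 1 libraries. The labels do not say whether the selected cells were pools or clones, nor what the title number stands for, nor whether libraries came from separate cultures, so every p-value measures only the spread between these libraries. SIX2, a homeobox transcription factor and the gene the virus was meant to raise, had 605 and 379 counts in the SIX2-labelled replicates 2 and 1, against 597 and 369 counts in the control replicates 2 and 1. Its log2 change between labels was 0.02 (SE 0.37), so the groups are called by their labels throughout. Between numbers SIX2 was higher in number 2, with a log2 change of 0.64 (SE 0.13, adjusted p 0.00119 in edgeR's quasi-likelihood test).

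MAGE proteins share the MAGE homology domain, through which they bind RING-type E3 ubiquitin ligases and change which proteins these ligases mark. Members of the A, B and C subfamilies are cancer-testis antigens. In healthy adults they are made mainly in germ cells of the testis, and in somatic tissue their promoters are kept methylated and silent. Many tumours express some of them, and their peptides can be shown to T cells. Members of the D to L subfamilies are expressed in many tissues. All but MAGEF1 on chromosome 3 and MAGEL2 on chromosome 15 lie on the X chromosome, 33 of the 35. In 22 of the 26 A, B and C members the coding sequence lay in 1 exon in every annotated transcript, as it did in 5 of the 9 D to L members, whereas transcripts of MAGED1 and MAGED2 had at least 11 coding exons.

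Library totals lay between 14792869 and 16777792 counts, and MAGE members took 4491 to 8186 of them per library. The libraries stood apart by title number and not by virus label. Between numbers, edgeR's quasi-likelihood test with Benjamini-Hochberg adjustment called 7151 of 16343 tested genes. Between labels it called 0, with 12 genes at an unadjusted p under 0.05. With title number as a further term it called 8 genes between labels. The gastric epithelial label was checked on 8 markers. The 8 summed to 5108 and 3907 CPM (counts per 1000000 of the scaled library size) in number 2 and to 2506 and 2579 CPM across the number 1 libraries. KRT8 and KRT18, which rose in number 2, gave most of that sum, and CDH1 and TFF1 fell. TFF1 had at most 26 counts in any library, KRT19 at most 2 and KRT20 at most 4. EPCAM, with 149 to 201 counts, and CLDN18, with 31 to 81, were not called. Of 8 germ cell markers, DAZL, DDX4, PRM1, PRM2, SYCP1 and TEX101 had 0 counts in every library, and the list summed to between 1.00 and 1.34 CPM. Of 6 fibroblast markers, LUM and DCN fell and COL1A1 and PDGFRB rose in number 2. COL3A1 was not called and COL1A2 had at most 1 count in any library. The list summed to 280 and 290 CPM across the number 2 libraries, of which COL1A1 alone gave 274 and 280 CPM. It summed to 137 and 123 CPM across the number 1 libraries. Of 4 neural markers, MAP2 and SNAP25 rose in number 2. TUBB3, with 6 to 27 counts, was not called, and ELAVL3 had at most 3 counts in any library. The list summed to 30.4 and 27.3 CPM across the number 2 libraries, most of it from MAP2 and SNAP25. It summed to 2.55 and 1.67 CPM across the number 1 libraries. Of 5 immune markers, PTPRC and CD3E had 0 counts in every library, and the list summed to between 2.67 and 3.59 CPM. The 3 endothelial markers summed to between 8.62 and 13.4 CPM. The part of these markers in the results below was not tested.

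Most of the family had 0 or few counts in these cells. In all 4 libraries 17 members had 0 counts. They were 11 A, B and C members (MAGEB4, MAGEA9, MAGEA4, MAGEC1, MAGEB18, MAGEB10, MAGEB5, MAGEB16, MAGEB3, MAGEB1 and MAGEB6B) and 6 D to L members (MAGED4, MAGED4B, MAGEE1, MAGEE2, MAGEH1 and MAGEL2). Another 8, all of the A, B and C subfamilies, had 1 to 9 counts over the 4 libraries. MAGEA8 had 2 and 3 counts in the SIX2-labelled and control libraries of number 2 and 0 in both of number 1, MAGEB6 had 2 and 1 counts there and 0 in number 1, and MAGEB17 had 0 in both of number 2 and 1 and 2 in those of number 1. MAGEA2 had 3 counts in control replicate 1 alone, MAGEA10 had 2 counts and MAGEA2B 1 count in SIX2 replicate 1 alone, MAGEC3 had 1 count in SIX2 replicate 2 and MAGEA9B had 1 count in control replicate 1. At this depth a floor of 3 counts per library corresponds to between 0.179 and 0.200 CPM, and lower levels were not detectable. How reads shared between similar genes were counted is not known, and shared transcript windows were searched only for members with 10 or more counts. For paired members such as MAGED4 and MAGED4B, MAGEA9 and MAGEA9B, or MAGEA2 and MAGEA2B, low or 0 counts therefore do not show silence. The remaining 10 members carried nearly all of the family's reads. They were MAGEA6, MAGEB2, MAGEA1, MAGEA3, MAGEA11, MAGEA12 and MAGEC2 among the germline-restricted subfamilies and MAGED2, MAGEF1 and MAGED1 among the broadly expressed ones. So 7 of 26 A, B and C members and 3 of 9 D to L members reached 10 counts.

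The family's expressed set differed by title number. MAGEB2 was present in number 2 and near 0 in number 1, and MAGEA12 was at 0 in number 2 and present in number 1. MAGEA11 and MAGED1 were present in both and far higher in number 2. MAGEA1, MAGEF1 and MAGEA3 were higher in number 2 by smaller factors. Promoters of the members with the largest changes, and that of MAGEA3 and MAGEA6, are shown first, since promoter methylation is known to control the A, B and C members. Each window below is the RefSeq sequence on GRCh38.p14 of 250 bases before to 50 bases after an annotated start, with every CpG, the dinucleotide that DNA methylation marks, in capitals. MAGEB2 is at chrX:30215313-30215612 on the plus strand, MAGEA12 at chrX:152733507-152733806 on the plus strand and MAGEA11 at chrX:149711810-149712109 on the plus strand. The MAGEA11 window lies inside the gene, whose first annotated base is chrX:149688228. No window was found for that upstream start, and which start was used here was not tested. The MAGEA3 window at chrX:152698544-152698843 on the plus strand and the MAGEA6 window at chrX:152769640-152769939 on the minus strand were identical, with 0 of 300 bases different, so it is printed once. MAGED1 has 2 annotated starts, upstream at chrX:51802826-51803125 and downstream at chrX:51893373-51893672, both on the plus strand.
MAGEB2: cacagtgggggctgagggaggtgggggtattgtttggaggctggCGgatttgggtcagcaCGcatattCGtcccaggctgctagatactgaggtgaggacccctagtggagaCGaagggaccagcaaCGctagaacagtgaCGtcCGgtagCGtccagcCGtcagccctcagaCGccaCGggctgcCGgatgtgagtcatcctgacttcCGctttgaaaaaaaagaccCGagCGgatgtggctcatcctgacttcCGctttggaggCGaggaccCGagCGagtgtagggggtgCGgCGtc
MAGEA12: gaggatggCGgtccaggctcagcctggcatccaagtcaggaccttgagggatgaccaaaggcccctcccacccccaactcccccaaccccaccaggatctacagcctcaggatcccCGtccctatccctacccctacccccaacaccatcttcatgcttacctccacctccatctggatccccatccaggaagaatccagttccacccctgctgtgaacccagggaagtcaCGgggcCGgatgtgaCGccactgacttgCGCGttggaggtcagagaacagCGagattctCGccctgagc
MAGEA11: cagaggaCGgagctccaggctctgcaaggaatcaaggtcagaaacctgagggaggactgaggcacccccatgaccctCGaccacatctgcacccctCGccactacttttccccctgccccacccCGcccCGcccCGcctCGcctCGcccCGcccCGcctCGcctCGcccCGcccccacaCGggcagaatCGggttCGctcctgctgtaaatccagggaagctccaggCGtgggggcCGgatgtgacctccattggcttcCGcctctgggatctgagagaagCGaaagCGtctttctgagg
MAGEA3 and MAGEA6: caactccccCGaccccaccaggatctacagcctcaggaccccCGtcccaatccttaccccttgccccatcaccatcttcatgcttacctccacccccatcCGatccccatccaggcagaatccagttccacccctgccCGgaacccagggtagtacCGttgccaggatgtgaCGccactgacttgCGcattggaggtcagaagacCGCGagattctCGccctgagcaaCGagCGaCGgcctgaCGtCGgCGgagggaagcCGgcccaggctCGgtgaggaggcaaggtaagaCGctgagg
MAGED1, upstream start: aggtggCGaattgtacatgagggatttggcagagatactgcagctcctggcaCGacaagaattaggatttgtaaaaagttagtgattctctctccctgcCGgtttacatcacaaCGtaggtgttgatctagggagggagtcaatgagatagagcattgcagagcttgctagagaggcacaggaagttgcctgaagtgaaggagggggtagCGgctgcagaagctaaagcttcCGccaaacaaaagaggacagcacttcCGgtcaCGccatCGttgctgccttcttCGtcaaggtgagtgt
MAGED1, downstream start: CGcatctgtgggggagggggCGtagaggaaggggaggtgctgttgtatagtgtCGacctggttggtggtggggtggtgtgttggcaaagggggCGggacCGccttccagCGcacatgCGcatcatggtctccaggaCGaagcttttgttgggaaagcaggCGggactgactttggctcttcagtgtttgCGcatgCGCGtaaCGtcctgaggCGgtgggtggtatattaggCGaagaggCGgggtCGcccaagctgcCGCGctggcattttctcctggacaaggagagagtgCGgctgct

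These windows held 21 CpG for MAGEB2, 9 for MAGEA12 (15 at a second annotated start), 21 for MAGEA11, 19 for MAGEA3 and MAGEA6, and 10 and 20 for the upstream and downstream starts of MAGED1. RefSeq windows were found for 31 of the 35 members, 42 windows in all, and MAGEA1, MAGEA10, MAGEB17 and MAGEH1 had no entry. The median was 12 CpG per window for the 31 windows of A, B and C members (quartiles 9 and 15), 12 for the 11 windows of D to L members (quartiles 10 and 21.5) and 14 for all 35116 promoter windows (quartiles 4 and 28). MAGEB2 and MAGEA11, which were high in number 2, thus held 21 CpG each. MAGEA12, which was at 0 there, held 9 and 15, and MAGED1, which was also high, held 10 and 20. DNA methylation was not measured, and the part of CpG number in the changes was not tested. GGAA, the core of an ETS factor site, stood on either strand in 95.5% of all windows and in every MAGE window. CGCG stood in 49.9% of all windows, in 6 of 31 windows of A, B and C members and in 6 of 11 windows of D to L members.

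Many A, B and C promoters shared 8 letters just before the start, CGGATGTG, which holds the core of an ETS site read as CGGAT. The letters were picked after the windows had been read, and both strands were searched. They stood in 12 of the 23 A, B and C members with a window and in 0 of the 8 D to L members. Counted by window, they stood in 18 of 31 A, B and C windows (58.1%), in 0 of 11 D to L windows and in 0.666% of all 35116 windows. The stretches below are 30 bases each with CGGATGTG in capitals. They are shown because members that were high, low and at 0 counts here carry nearly the same letters. MAGEB2 holds them 64 and 18 bases before its start, at chrX:30215488-30215517 and chrX:30215534-30215563. MAGEB1 holds them at chrX:30247123-30247152, MAGEA11 at chrX:149712035-149712064, MAGEA12 at chrX:152733733-152733762 and MAGEA8 at chrX:149881159-149881188, all on the plus strand. MAGEC2 holds them at chrX:142205279-142205308 and MAGEA2 at chrX:152753885-152753914, both on the minus strand.
MAGEB2, distal: ccacgggctgcCGGATGTGagtcatcctga
MAGEB2, proximal: aaagacccgagCGGATGTGgctcatcctga
MAGEB1: ccacgggctgcCGGATGTGgctcatcctga
MAGEA11: ggcgtgggggcCGGATGTGacctccattgg
MAGEA12: agtcacggggcCGGATGTGacgccactgac
MAGEA8: ccctgggtggaCGGATGTGacgccactgac
MAGEA2: agtcacgggccCGGATGTGacgccactgac
MAGEC2: ggcagggttccCGGATGTGctttcccgacg

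Members with the match stood at very different levels. MAGEB2, MAGEA11, MAGEA12 and MAGEC2 held it and reached 10 counts. MAGEB1, MAGEC1, MAGEA9 and MAGEA4 held it and had 0 counts in every library, MAGEA4 in each of its 5 windows. MAGEA3 and MAGEA6, which were among the most abundant members, did not hold the exact letters. Their window reads AGGATGTG before ACGCCACTGAC, where MAGEA12 reads CGGATGTG before the same bases. A search for exact letters therefore does not show that these members lack the shared stretch.

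**Figure D1:**
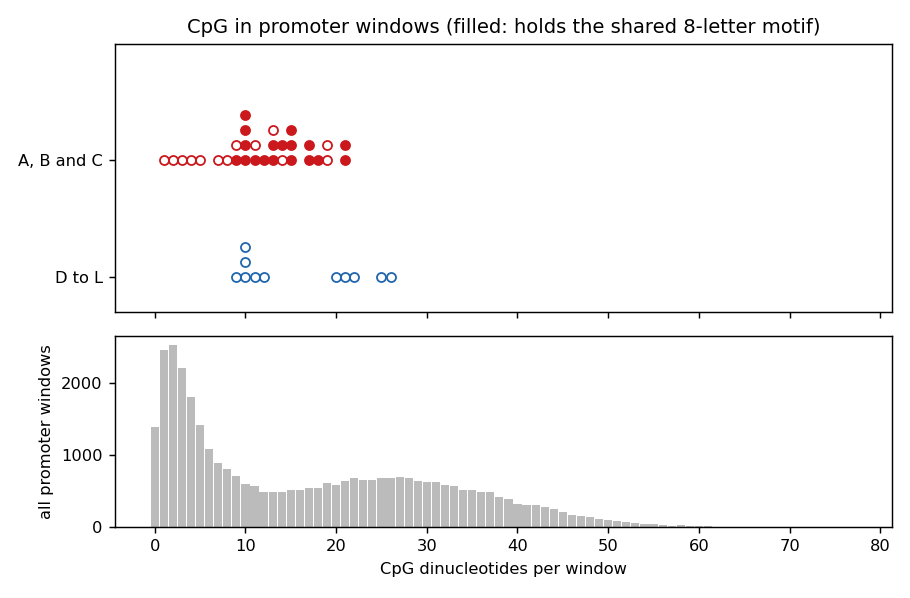
Number of CpG per 300-base promoter window, with 1 circle for each of the 42 windows of MAGE members above and all RefSeq windows as a histogram below, and with filled circles for windows that hold CGGATGTG. The MAGE windows lie between 1 and 26 CpG, and the filled circles, all in the A, B and C row, lie between 9 and 21.

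MAGEB2 (ENSG00000099399, chrX:30215560-30220089, plus strand, GRCh38) is a cancer-testis antigen known to lower translation of the stress granule protein G3BP1. It had 1149 counts in SIX2 replicate 2 and 1083 in control replicate 2, against 0 in SIX2 replicate 1 and 3 in control replicate 1. Both libraries of number 2 were therefore high and both of number 1 were at or near 0, in either virus label. Its level averaged 68.8 ± 5.70 CPM across the number 2 libraries and 0.100 ± 0.142 CPM across the number 1 libraries (SD, n = 2 each). The 2232 counts of number 2 against 3 of number 1 gave a ratio of 720 after scaling, with an exact 95% interval of 246 to 3494 that covers counting error only. The fitted log2 change was 9.38 (SE 0.32), with an adjusted p of 4.49e-10 in edgeR's quasi-likelihood test. All 3 counts of number 1 came from control replicate 1, so the size of the change rests on few reads. The fitted change was 8.36 without SIX2 replicate 1, and 13.13 without control replicate 1, where number 1 is at 0 and the fitted value depends on the prior count. In bulk RNA, fewer cells that express a gene and less RNA per cell cannot be told apart.

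MAGEA12 (ENSG00000213401, chrX:152733779-152737669, plus strand), another cancer-testis antigen, ran the other way. It had 0 counts in SIX2 replicate 2 and 0 in control replicate 2, against 93 in SIX2 replicate 1 and 95 in control replicate 1. It was the sole tested member that was lower in number 2. Its level in number 1 was 5.99 ± 0.495 CPM (SD, n = 2). Set against a floor of 3 counts for the sum of both number 2 libraries, it was 64.8-fold lower there (edgeR adjusted p 1.05e-06). The floor is a set value and not a confidence limit, since the exact 95% upper limit for 0 counts in a library is 3.69.

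MAGEA11 (ENSG00000185247, chrX:149688228-149717266, plus strand), known as a coregulator of the androgen receptor, had 175 counts in SIX2 replicate 2 and 161 in control replicate 2, against 15 in SIX2 replicate 1 and 10 in control replicate 1. The numbers did not overlap, and the gene was low but detected in number 1. It averaged 10.4 ± 1.04 CPM across the number 2 libraries and 0.789 ± 0.172 CPM across the number 1 libraries (SD, n = 2 each). The log2 change was 3.69 (SE 0.30, edgeR adjusted p 6.29e-07). Of the A, B and C members, it alone has its coding sequence split over 4 exons in every annotated transcript.

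MAGEA1 (ENSG00000198681, chrX:153179285-153183880, plus strand), the founding member of the family and a target of T cells in melanoma, was expressed in all libraries. It had 661 counts in SIX2 replicate 2 and 666 in control replicate 2, against 282 in SIX2 replicate 1 and 263 in control replicate 1. Its level was 40.9 ± 1.46 CPM across the number 2 libraries and 17.3 ± 0.317 CPM across the number 1 libraries (SD, n = 2 each). The log2 change was 1.24 (SE 0.13, edgeR adjusted p 6.33e-06), and the within-label ratios, 2.45 in SIX2-labelled and 2.27 in control libraries, were close to each other.

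MAGEA3 (ENSG00000221867, chrX:152698752-152702347, plus strand) and MAGEA6 (ENSG00000197172, chrX:152766136-152769747, minus strand) encode near-identical proteins that act with TRIM28, and their reads cannot be fully separated. Of the 75-base windows of the MAGEA3 transcript, 42.0% also stood in MAGEA6, so how the authors' counting split shared reads bears on both genes. MAGEA3 had 533 counts in SIX2 replicate 2 and 561 in control replicate 2, against 352 in SIX2 replicate 1 and 380 in control replicate 1. Both values of number 2 were above both of number 1, with a log2 change of 0.53 (SE 0.13, edgeR adjusted p 0.00607). Without SIX2 replicate 1 the change was 0.40 and the call was lost (adjusted p 0.144). MAGEA6 had 957 counts in SIX2 replicate 2 and 1032 in control replicate 2, against 926 in SIX2 replicate 1 and 859 in control replicate 1. It was nearly level, at 61.2 ± 0.748 CPM across the number 2 libraries and 56.8 ± 0.823 CPM across the number 1 libraries (SD, n = 2 each), with a log2 change of 0.11 (SE 0.11) that did not pass the test (edgeR adjusted p 0.449).

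MAGEC2 (ENSG00000046774, chrX:142202345-142205290, minus strand), another partner of TRIM28, had 1 count in SIX2 replicate 2 and 2 in control replicate 2, against 5 in each library of number 1. It was too low for the filter on low counts and was not tested. Its ratio of number 2 over number 1 was 0.290 with an exact 95% interval of 0.0513 to 1.13, so no difference was detectable at this depth.

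**Figure D2:**
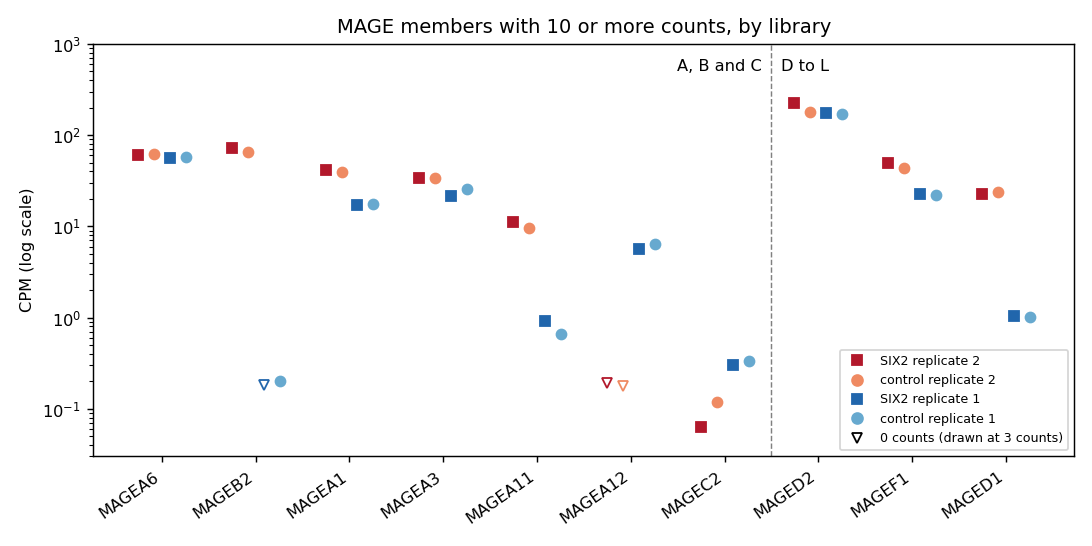
CPM on a log scale for the 10 members with 10 or more counts, with 1 symbol per library and open triangles for 0 counts drawn at the level of 3 counts. MAGEB2, MAGEA11 and MAGED1 are high in both libraries of number 2 and MAGEA12 in both of number 1, while the 4 values of MAGEA6 lie close together.

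Among the broadly expressed members, MAGED2 (ENSG00000102316, chrX:54807599-54816012, plus strand), known for its role in renal salt transport before birth, was the most abundant MAGE transcript in every library. It had 3553 counts in SIX2 replicate 2 and 2978 in control replicate 2, against 2855 in SIX2 replicate 1 and 2526 in control replicate 1. As CPM these were 225, 178, 173 and 169, so SIX2 replicate 2 was above the other 3 libraries, which lay close together. The log2 change between numbers was 0.24 (SE 0.12) and did not pass the test (edgeR adjusted p 0.134). Without control replicate 2 it was 0.41 and passed (adjusted p 2.33e-05), and without SIX2 replicate 2 it was 0.06 (adjusted p 0.630).

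MAGEF1 (ENSG00000177383, chr3:184710367-184712002, minus strand), an intronless gene whose product works with the NSE1 ligase, had 791 counts in SIX2 replicate 2 and 726 in control replicate 2, against 372 in SIX2 replicate 1 and 329 in control replicate 1. Both libraries of number 2 were above both of number 1. The log2 change was 1.07 (SE 0.13, edgeR adjusted p 2.24e-05).

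MAGED1 (ENSG00000179222, chrX:51803007-51902357, plus strand), which binds the neurotrophin receptor p75NTR and the ligase PJA1, was the one D to L member with a change of the size seen in MAGEA11. It had 361 counts in SIX2 replicate 2 and 402 in control replicate 2, against 17 in SIX2 replicate 1 and 15 in control replicate 1. The log2 change was 4.52 (SE 0.22, edgeR adjusted p 7.45e-09), and the ratio was 23.1 with an exact 95% interval of 16.2 to 34.0.

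Between numbers, 7 of the 9 tested members were called, 6 higher and 1 lower in number 2, against 43.8% of all tested genes called (22.2% higher and 21.6% lower). In the germline-restricted arm 5 of 6 tested members were called, 4 higher (MAGEB2, MAGEA1, MAGEA3 and MAGEA11) and 1 lower (MAGEA12). In the broadly expressed arm 2 of 3 were called, both higher (MAGEF1 and MAGED1). A member that was near 0 in 1 number entered the test through the other, and the 26 members that were not tested are outside these counts. Of all tested genes 3.15% were called with a change of at least 10-fold, and MAGEB2, MAGEA12, MAGEA11 and MAGED1 were among them. On the X chromosome, 61.0% of 426 other tested protein-coding genes were called, 213 higher and 47 lower in number 2, with a median log2 change of 0.38 beside 0.01 over all tested genes. The share of the X chromosome as a whole in the members' changes was not tested.

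**Figure D3:**
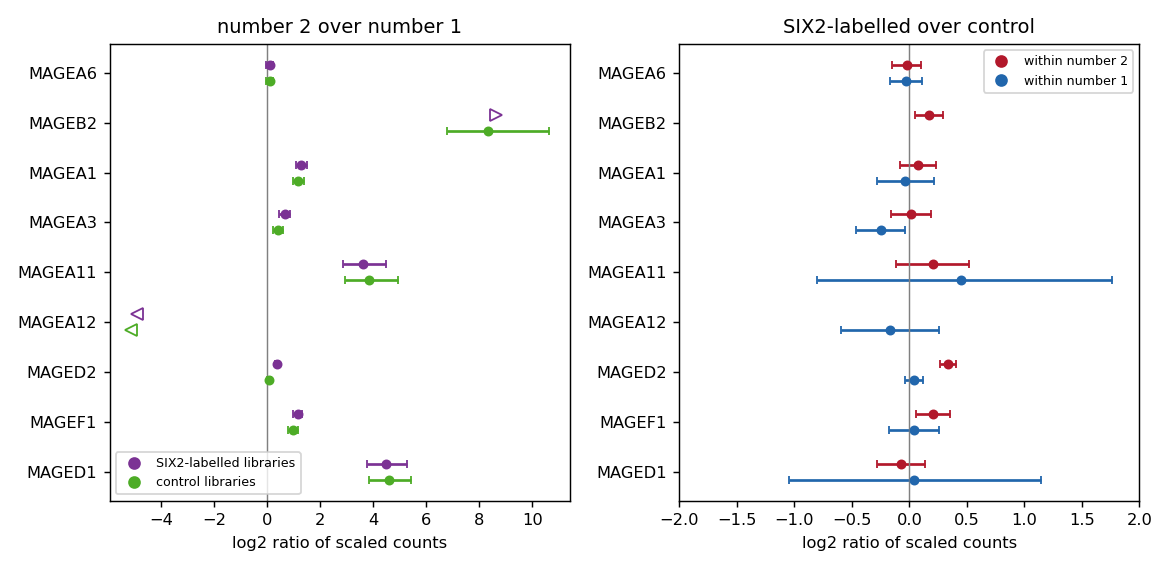
Log2 ratios of scaled counts for the 9 tested members, number 2 over number 1 within each virus label on the left and SIX2-labelled over control within each number on the right. Bars are exact 95% intervals for counting error, and open triangles are ratios set against a floor of 3 counts in the library at 0. MAGEB2 in number 1 and MAGEA12 in number 2 are not drawn on the right. The 2 virus labels give similar ratios on the left, and points on the right lie between -0.25 and 0.45.

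The change between numbers had the same direction in SIX2-labelled and control libraries for each tested member. The ratio of number 2 over number 1 was 12.2 in SIX2-labelled and 14.4 in control libraries for MAGEA11, 22.2 and 24.0 for MAGED1, 2.22 and 1.98 for MAGEF1, 1.58 and 1.32 for MAGEA3, and 1.08 in both for MAGEA6. MAGED2 gave 1.30 in SIX2-labelled and 1.06 in control libraries. In the SIX2-labelled pair, where replicate 1 had 0 counts, MAGEB2 was 400-fold higher in number 2 when set against a floor of 3 counts. In the control pair it was 323-fold higher (exact 95% interval 110 to 1570).

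Between virus labels, 0 of the 9 tested members were called by edgeR's quasi-likelihood test, against 0% of all tested genes. With title number as a term 0 members were called as well, against 0.0490% of all tested genes (0.0367% higher and 0.0122% lower). The log2 changes of SIX2-labelled over control lay between -0.16 for MAGEA12 (SE 2.54) and 0.22 for MAGEA11 (SE 1.57). Each label holds 1 library of each number, and the errors of the members that differ by number were wide. The biological coefficient of variation was 45.0% with virus label alone and 10.7% with title number as a further term. With virus label alone, a label effect of the size of these errors could not have been seen, so the count of 0 does not show that the labels were alike. With title number as a term the errors were smaller. The log2 changes then lay between -0.17 for MAGEA12 (SE 0.45) and 0.26 for MAGEA11 (SE 0.31), with 0.12 for MAGEB2 (SE 0.20). Within a number the labels could be set side by side on counting error alone. In number 2, MAGED2 was 1.26 times as high in the SIX2-labelled as in the control library (exact 95% interval 1.20 to 1.33), MAGEF1 1.15 times (1.04 to 1.28) and MAGEB2 1.12 times (1.03 to 1.22). In number 1 the same ratio was 1.03 for MAGED2 (0.973 to 1.08) and 1.03 for MAGEF1 (0.884 to 1.20), while MAGEA3 gave 0.842 (0.726 to 0.976). These within-number ratios each compare 1 library with 1 library and have no replicate check.

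As a whole the family summed to 519 CPM in SIX2 replicate 2 and 455 CPM in control replicate 2, against 299 CPM in SIX2 replicate 1 and 300 CPM in control replicate 1. The A, B and C members summed to 215 ± 7.63 CPM across the number 2 libraries and 105 ± 4.58 CPM across the number 1 libraries, and the D to L members to 272 ± 37.2 CPM across the number 2 libraries and 194 ± 3.70 CPM across the number 1 libraries (SD, n = 2 each). Their share of the family's counts was 42.5% and 46.1% for A, B and C members in number 2, and 34.1% and 36.1% in number 1. By virus label the family averaged 409 ± 156 CPM in SIX2-labelled and 378 ± 110 CPM in control libraries (SD, n = 2 each), where the spread within a label exceeded the difference between them.

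**Figure D4:**
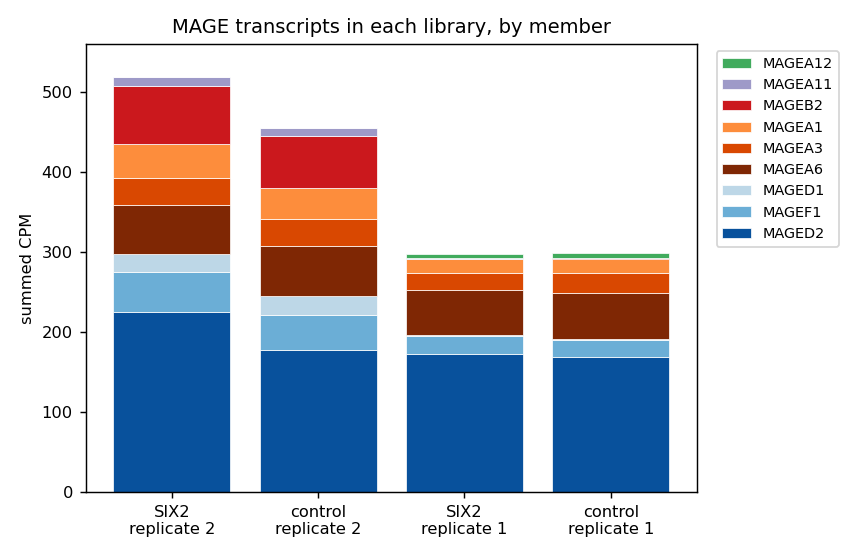
Summed CPM of the MAGE members in each library, stacked by member. The bars of number 2 reach 519 and 455 CPM and hold a MAGEB2 segment that is missing in the bars of number 1, which reach 299 and 300 CPM, and MAGED2 is the largest segment in all 4.

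Levels of different members can be compared per length of transcript. Among the 10 members with 10 or more counts, in CPM per kilobase of exon, MAGED2 stood first at 68.6 in number 2 and 58.2 in number 1. In number 2 it was followed by MAGEB2 at 42.7, MAGEA6 at 32.8, MAGEF1 at 28.6, MAGEA1 at 23.9 and MAGEA3 at 18.8, with MAGED1 at 3.90 and MAGEA11 at 2.99. In number 1 it was followed by MAGEA6 at 30.5, MAGEF1 at 13.6, MAGEA3 at 13.1, MAGEA1 at 10.1 and MAGEA12 at 3.09, and MAGEA11, MAGED1, MAGEC2 and MAGEB2 were all under 0.25. In number 2 the paired values of neighbours in this order did not overlap, as for MAGEF1 at 30.6 and 26.5 beside MAGEA6 at 32.6 and 33.1 and MAGEA1 at 24.5 and 23.3. In number 1, MAGEF1 at 13.8 and 13.4 lay within the range of MAGEA3 at 11.9 and 14.2, so these neighbours did not differ beyond their spread. Per exon length, the germline-restricted MAGEB2 was thus second of these 10 in number 2 and last of them in number 1.

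Within 500 kb of the 10 members lay 75 distinct other protein-coding genes, of which 36 were tested, 12 were called higher and 3 lower in number 2, beside 43.8% called over all tested genes. Of the 75, 19 had 0 counts in every library. MAGEA12 shared its change with CSAG1, a chondrosarcoma-associated cancer-testis gene that starts 43 bases away on the opposite strand, at chrX:152727484-152733735. CSAG1 had 1 count in SIX2 replicate 2 and 2 in control replicate 2, against 73 in SIX2 replicate 1 and 71 in control replicate 1, and was 49.6-fold lower in number 2 (exact 95% interval 16.6 to 243, edgeR adjusted p 2.65e-06). CSAG3, which has the near-identical copy CSAG2 and is therefore uncertain, had 9 and 2 counts in the SIX2-labelled and control libraries of number 2 against 64 and 44 in those of number 1 (log2 change -3.30, edgeR adjusted p 0.000234). MAGEA3 and MAGEA6 lie within the same stretch and were higher or nearly level, by the values given above. GABRQ, a GABA receptor subunit gene, was higher in number 2 with a log2 change of 2.81.

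**Figure D5:**
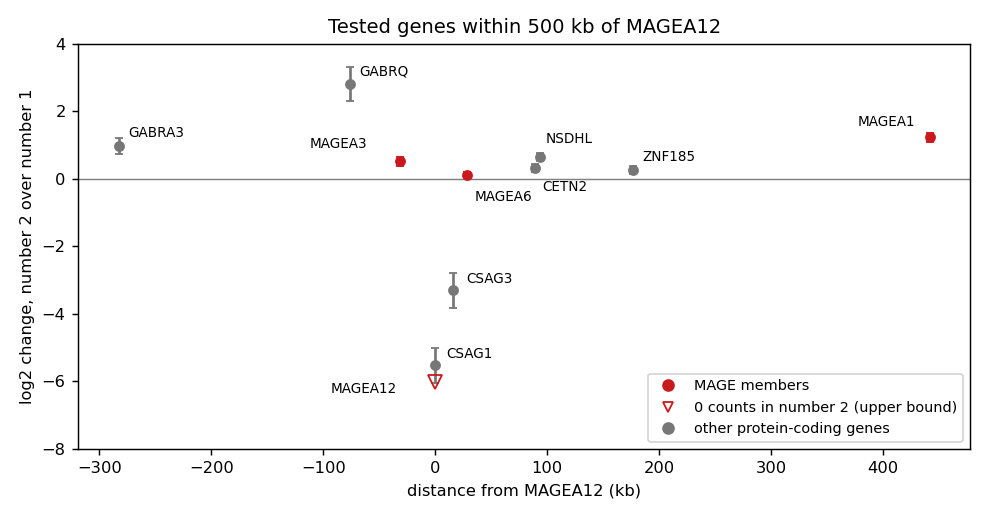
Log2 change between numbers for tested genes within 500 kb of MAGEA12, by distance from that gene in kilobases, with bars for the SE. The open triangle is MAGEA12 set against a floor of 3 counts. CSAG1 and CSAG3 fall with MAGEA12, while MAGEA3, MAGEA6 and the other genes shown lie at or above 0.

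Around MAGEB2, the glycerol kinase gene GK had 495 and 489 counts in the SIX2-labelled and control libraries of number 2 against 311 and 282 in those of number 1 (log2 change 0.68), far less than MAGEB2 itself, and the other 3 genes outside the family within 500 kb had at most 1 count. The B members beside it, MAGEB1, MAGEB3 and MAGEB4, had 0 counts in every library. Around MAGED1, 7 of 8 genes had 0 counts in every library and none was tested. Around MAGEA11 and MAGED2, 4 and 5 genes were tested and 0 were called. Around MAGEF1 on chromosome 3, 8 of 13 tested genes were called, all higher, beside 22.2% called higher over all tested genes.

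Other cancer-testis antigen genes were read beside the family. The shares called in this and the following lists stand beside 43.8% called and a median log2 change of 0.01 over all tested genes. Of 64 found, 25 had 0 counts in every library and 19 were tested, of which 4 were called higher and 4 lower in number 2 (42.1%, median log2 change 0.03). GAGE1, an X-linked antigen with many near-identical copies and so uncertain, had 113 and 118 counts in the SIX2-labelled and control libraries of number 2 against 4 and 4 in those of number 1 (log2 change 4.76, edgeR adjusted p 6.93e-07). HORMAD1, a meiotic chromosome axis protein, was lower in number 2, with 41 and 73 counts in the SIX2-labelled and control libraries of number 2 against 331 and 253 in those of number 1 (log2 change -2.40). PBK, a mitotic kinase also expressed in dividing somatic cells, had a log2 change of 1.42. CTAG1B, which encodes the antigen NY-ESO-1, had 0 counts in every library, as did the paired gene CTAG1A. How reads shared by such a pair were counted is not known, so these counts do not show silence. CTCFL, the testis paralogue of CTCF and a known activator of MAGE promoters, had 1 and 5 counts in the SIX2-labelled and control libraries of number 2 against 0 and 1 in those of number 1.

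Of 39 germ line genes known to be kept silent by promoter methylation, 13 were tested, with 5 higher and 2 lower in number 2 (53.8%, median 0.21). MEIOB, a meiotic recombination factor, had a log2 change of -4.06, MOV10L1, a piRNA pathway helicase, 4.89 on 38 counts in number 2 against 1 count in number 1, and SMC1B, a meiotic cohesin subunit, 2.15. HORMAD1 belongs to this list as well.

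The ligase partners and substrates of MAGE proteins were mostly expressed in all libraries. Of 31, 30 were tested, with 9 higher and 2 lower in number 2 (36.7%, median 0.11). PJA1, the RING ligase bound by MAGED1, had 320 and 402 counts in the SIX2-labelled and control libraries of number 2 against 2 and 0 in those of number 1. The ratio was 349 with an exact 95% interval of 96.4 to 2890 (edgeR adjusted p 7.63e-09). PJA1 and MAGED1 were thus both low in number 1 and both present in number 2. TRIM28, partner of MAGEA3, MAGEA6 and MAGEC2, was abundant throughout at 476 ± 22.0 CPM across the number 2 libraries and 350 ± 5.53 CPM across the number 1 libraries (SD, n = 2 each), with a log2 change of 0.44 (edgeR adjusted p 0.00394). TRIM31, another RING ligase, fell with a log2 change of -3.42, USP7, a deubiquitinase, rose by 0.76 and CAPRIN1, a stress granule protein, fell by 0.59 on that scale.

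Genes of other names that encode a MAGE homology domain were few. NSMCE3, a subunit of the SMC5-SMC6 complex, had 318 and 263 counts in the SIX2-labelled and control libraries of number 2 against 233 and 216 in those of number 1, and its log2 change of 0.33 did not pass the test (edgeR adjusted p 0.127). NDN, the imprinted gene for necdin, had 0 counts and TRO, for trophinin, had 3 counts in SIX2 replicate 2 alone. Of 9 SMC5-SMC6 complex genes 4 were called, all higher in number 2 (44.4%, median 0.33), namely SLF1 (log2 change 1.65), SLF2 (1.01), EID3 (0.83) and NSMCE4A (0.60).

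Of 40 tested genes of DNA methylation and silencing, 9 were higher and 6 lower in number 2 (37.5%, median 0.03). The de novo methyltransferase gene DNMT3A had 254 and 322 counts in the SIX2-labelled and control libraries of number 2 against 89 and 92 in those of number 1 (log2 change 1.62, edgeR adjusted p 1.58e-05). DNMT3B, the other de novo enzyme, was lower, with a log2 change of -0.49 (edgeR adjusted p 0.00584). DNMT1, which copies methylation after replication, had a change of 0.34 (edgeR adjusted p 0.0230), and the chromatin remodeller HELLS 0.98. SUZ12, a Polycomb subunit, had a log2 change of 0.80 and MBD1, which binds methylated DNA, -0.49. Over the cancer-testis, homology domain, partner, SMC5-SMC6, methylation and germ line lists together, 44 of 109 tested genes were called between numbers, beside 43.8% over all tested genes, and 0 between virus labels. The count between numbers varied with the library left out, and the share over all tested genes in those fits is not given.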

How the data were processed

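Total RNA was sequenced from 4 libraries, prepared with an Illumina TruSeq RNA kit per the labels' protocols. The authors deposited 1 file per library that holds raw counts for each Ensembl gene, as whole numbers, per the file headers. Which aligner, counter and strand option were used is not given in the sources used here. Reads of antisense neighbours therefore cannot be told apart. The submitters' processing notes name the build mm9, yet all 58735 gene identifiers and coordinates in the files equal those of human GENCODE 29 on GRCh38, and coordinates are given on that build. Labels differ on the number of repeats.

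Tests used edgeR 4.0.16 under R 4.3.3 (filterByExpr, TMM scaling, quasi-likelihood F-test with 1 term, SE from the F statistic, Benjamini-Hochberg adjustment over 16343 tested genes, threshold 0.05). Title number, 2 over 1, and virus label, SIX2 over control, were compared in all 4 libraries. Ratios of summed counts carry exact binomial intervals at 95%, which cover counting error only. DESeq2 1.42.0 and limma 3.58.1 (voom) served as alternatives. Exons and shared 75-base transcript windows came from GENCODE, promoters from RefSeq. Protein identity between members was not analysed here.

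The members and gene lists were chosen with earlier results of these data known. Every member was named, those with 10 or more counts in full, and in each list up to 4 genes with the smallest adjusted p between numbers, plus CTCFL, TRIM28, DNMT1, DNMT3B, CTAG1B, NDN, NSMCE3 and TRO.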

Additional observations from a re-analysis of the deposited data

Results flagged for a closer look

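For 3 tested members the difference between SIX2-labelled and control libraries had opposite signs in the 2 title numbers. MAGEA1 differed by 0.0730 on the log2 scale in number 2 and by -0.0373 in number 1. MAGEA3 differed by 0.0100 in number 2 and by -0.248 in number 1. MAGED1 differed by -0.0713 in number 2 and by 0.0427 in number 1. Each value compares 1 library with 1 library, and no test was made of how it differs with the number. The exact 95% interval of the ratio included 1 for each except MAGEA3 in number 1.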

How the results depend on the processing

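Of 99 values of the members' change between numbers under other scalings, filters, tests and left-out libraries, 97 kept their direction and their side of the threshold, 1 lost its call (MAGEA3 without SIX2 replicate 1), 1 gained a call (MAGED2 without control replicate 2) and 0 reversed. The count of called members was 7 under each alternative that kept all libraries and 6 to 8 with 1 library left out. It was 4 to 5 for the A, B and C members and 2 to 3 for the D to L members. The list genes called ranged between 27 and 54 and the neighbouring genes between 15 and 21 with 1 library left out, against 44 and 15 with all. With 1 library left out, 110 to 112 list genes and 38 to 39 neighbouring genes were tested, against 109 and 36 with all. The share called over all tested genes in the fits with 1 library left out is not given. Whether these ranges follow that share was not tested, so they are not a result about these genes. Upper quartile scaling gave a family sum of 297 CPM in number 1, where the main value was 299.

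Between virus labels 0 members were called under every alternative, and signs were unstable. With limma-voom MAGEB2 was at -1.58 and MAGEA12 at 0.16. With 1 library left out, which leaves the numbers unbalanced between labels, log2 changes ran between -12.03 and 7.46 for MAGEB2, -8.65 and 8.54 for MAGEA12, -3.59 and 3.58 for MAGED1, -2.49 and 3.17 for MAGEA11, -0.75 and 0.76 for MAGEA1, -0.54 and 0.74 for MAGEF1, -0.47 and 0.19 for MAGEA3, -0.00274 and 0.373 for MAGED2, and -0.0851 and 0.0334 for MAGEA6. The lone library of a label was there assumed to vary like the others.

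The shared title number could serve as a replicate block, though no label says what it marks. With the replicate block 0 members and 8 genes in all were called between labels, against 0 and 0 without it. Deviations of same-numbered libraries from their group means correlated with r = 0.865 over 2 pairs, which are mirror images of each other. Per kilobase of coding length in place of exon length, MAGEA3 (24.8) stood above MAGEF1 (24.2) in number 1. Per kilobase of gene span, MAGEF1, which has no intron, stood first in number 2 at 28.6 and MAGEA6 (16.9) stood above MAGEB2 (15.2). Members under 3 counts in a library were beyond what the depth could resolve.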

Other observations

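Outside the protein-coding members, 6 other rows carried a MAGE name. MAGEA8-AS1 had 4 counts over the 4 libraries and the readthrough transcript MAGEA10-MAGEA5 had 2. MAGEA13P, MAGEA7P, MAGEA4-AS1 and MAGEA5 had 0. Among genes that overlap a member, CSAG4, a pseudogene on the strand of MAGEA12, had 2 counts in control replicate 1 alone, and SNORA11 within MAGED2 had 1 to 3 counts per library.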
